A study of Mus musculus with 17 samples.

Results

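Fibroblast growth factors (FGFs) and the proteins that receive and carry them were described in cell lines from a mouse model of metastatic breast cancer. The set holds 10 of the 55450 genes in the expression table: the ligands Fgf1, Fgf2, Fgf7, Fgf10 and Fgf18, the receptors Fgfr1, Fgfr2, Fgfr3 and Fgfr4, and the binding protein Fgfbp1. They were picked by family with their levels across the groups already known, so the levels of these 10 genes are given as a description, and no p-value of theirs is printed. The other genes of the FGF pathway, 83 sorted by role into 7 lists, were tested. These lists too were drawn up with earlier results of these data known, so their counts and shares are descriptions and not independent evidence.

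FGFs are secreted proteins that bind receptor tyrosine kinases on the cell surface together with heparan sulfate, and the bound receptors act mainly through the RAS and MAP kinase cascade. In epithelial organs such as the mammary gland and the lung, FGF7 and FGF10 are classically made by the mesenchyme and act on an epithelial splice form of FGFR2, whereas FGFR1 is the usual receptor of mesenchymal cells. FGFBP1 is a secreted carrier that releases FGFs from the matrix.

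The libraries came from female FVB/NJ MMTV-PyMT mice, 10 animals aged 10 to 12 weeks, whose MMTV promoter drives the polyoma middle T oncogene in mammary epithelium. All groups carry that transgene. Tumors of the mammary fat pad (MFP) and metastatic sites (lung, bone marrow or BM, and lymph node or LN) were dissociated and grown in culture, with a month of enrichment for cancer cells. Sorting of the metastatic lines as CD44low/EpCAMhigh or CD44high/EpCAMhigh gave 6 groups. The seventh group, MFP, is labelled as primary tumor with no CD44 class, and the methods of the study treat it as a cell line too. Each of the 7 groups had 2 bulk RNA-seq libraries, described by the study as clonal isolates from different mice, and 3 lines had 1 single-cell library each: lung CD44high, lung CD44low and LN CD44high.

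Transcripts were given in the bulk table in TPM, a share of all transcripts that is corrected for gene length and keeps no read depth. The numbers of genes over 1 TPM ranged from 11508 to 13052 per library. Fewer cells of a type and less RNA per cell cannot be told apart in bulk values.

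Libraries were also checked against their labels. Epcam, which encodes the epithelial marker used in the sort, was between 315.09 and 941.14 TPM in the 10 MFP, LN and BM libraries, but was listed at 0 in both lung CD44low libraries and at 0.23 and 0.86 TPM in the lung CD44high libraries. Of 8 epithelial markers, 1 or 2 reached 1 TPM in a lung library and 6 or 7 in every other library. The 8 fibroblast markers were all over 1 TPM in both lung CD44low libraries, with summed levels of 4708.03 and 5116.83 TPM, of which Dcn alone gave 4090.71 and 4315.33. The fibroblast sum was 194.83 and 85.74 TPM in lung CD44high and at most 19.9 TPM elsewhere. The 5 smooth muscle markers summed to 755.3 and 821.02 TPM in lung CD44low, mostly Acta2, and to at most 8.42 TPM elsewhere. Of these, 3 reached 1 TPM in lung CD44low, whereas Myh11 was at 0.14 and 0.15 TPM and Des, at 0.21 and 0.26 TPM, lay below the LN and BM libraries (1.21 to 2.35 TPM). By contrast, the 5 endothelial markers stayed at or under 0.28 TPM everywhere. The 5 macrophage markers summed to 39.18 and 39.09 TPM in lung CD44low, mostly Lyz2 (35.21 and 34.75 TPM), to 10.0 and 23.43 TPM in lung CD44high and to 2.28 to 23.25 TPM elsewhere, while Ptprc, the pan-leukocyte gene of that list, was at or under 0.2 TPM in all 14 libraries. The lung libraries thus went against the EpCAMhigh label, and the part of these markers in the FGF levels was not tested. Cd44 transcripts did not follow the CD44 label in any organ. They went against it in LN, at 146.7 and 82.72 TPM in LN CD44low and 49.04 and 52.26 TPM in LN CD44high. The classes overlapped in BM (43.77 and 74.9 TPM in CD44low, 50.49 and 49.0 in CD44high). They also overlapped in lung (12.22 and 21.62 TPM in CD44low, 21.95 and 12.07 in CD44high). Both labels come from a sort on surface protein, whereas these values are transcript levels. The second BM CD44low library stood apart from its partner: 7.81% of the genes tested lay at least 4-fold apart between them, against 0.743% to 3.6% in the other 6 pairs.

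Sequences upstream of Fgf7, Fgf10 and Fgfbp1 are shown because these genes had the widest ranges of level among the ligands and the binding protein. Promoter windows of RefSeq (GRCm38.p6, the build of the files) were matched by symbol for 8 of the 10 genes; Fgf1 and Fgfr1 had no entry. Each line gives the 250 bases before the annotated start, 5′ to 3′ on the strand of the gene. Capitals mark matches, on either strand, to GGGCGG (the GC box), TATAAA (the TATA box), TGANTCA (the AP-1 site) or CANNTG (the E-box), and no 2 matches overlap in these windows. The windows lie at chr2:126034408-126034657 (plus strand) for Fgf7, at chr13:118714449-118714698 (plus strand) for Fgf10 and at chr5:43981800-43982049 (minus strand) for Fgfbp1, and none holds an annotated exon on its strand. The RefSeq start of Fgf10 lies inside the longer span that GENCODE gives the gene.
Fgf7: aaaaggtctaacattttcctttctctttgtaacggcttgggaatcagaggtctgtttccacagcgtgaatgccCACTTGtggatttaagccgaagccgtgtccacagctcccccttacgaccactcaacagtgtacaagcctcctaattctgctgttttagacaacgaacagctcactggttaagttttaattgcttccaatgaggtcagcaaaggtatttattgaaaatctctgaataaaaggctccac
Fgf10: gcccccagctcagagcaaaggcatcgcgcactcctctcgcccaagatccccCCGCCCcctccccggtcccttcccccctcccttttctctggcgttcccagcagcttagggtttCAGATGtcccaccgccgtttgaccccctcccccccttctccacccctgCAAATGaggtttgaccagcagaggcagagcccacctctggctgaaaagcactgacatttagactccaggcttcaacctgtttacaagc
Fgfbp1: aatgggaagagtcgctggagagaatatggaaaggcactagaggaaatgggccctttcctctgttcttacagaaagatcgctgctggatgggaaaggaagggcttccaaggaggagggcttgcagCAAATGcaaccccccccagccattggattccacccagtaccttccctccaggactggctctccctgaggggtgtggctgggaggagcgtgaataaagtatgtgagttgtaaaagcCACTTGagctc

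The Fgf7 window held 1 E-box, 177 bases before the start. Fgf10 had a GC box 199 bases before the start and E-boxes at 136 and 88. Fgfbp1 had E-boxes at 126 and 11. GGGCGG was found in 32.7% of all 32851 promoter windows of the same length, TATAAA in 12.4%, TGANTCA in 6.75% and CANNTG in 66.2%. No TATAAA or TGANTCA lay in the 3 windows shown, but TATAAA began at base 4 of the 50 bases that follow the RefSeq start of Fgfbp1, a stretch in which 1.34% of all entries hold it on either strand. The windows held 6 (Fgf7), 8 (Fgf10) and 3 (Fgfbp1) CpG dinucleotides, beside a median of 6 over all promoters. By contrast, the window of Fgf18 held 37 CpG and that of Fgf2 held 20, so the ligands that were high in the same group did not share a CpG content.

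Ligand transcripts were far more abundant in lung CD44low than elsewhere. Summed over 22 FGF ligand genes, the level was 568.04 and 644.98 TPM in the lung CD44low libraries and between 1.11 and 5.17 TPM in the other 12 libraries. Fgf7 and Fgf10 together made up 97.0% and 94.3% of that sum in lung CD44low. The stacked plot of receptor and ligand TPM shows this contrast.

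**Figure D1:**
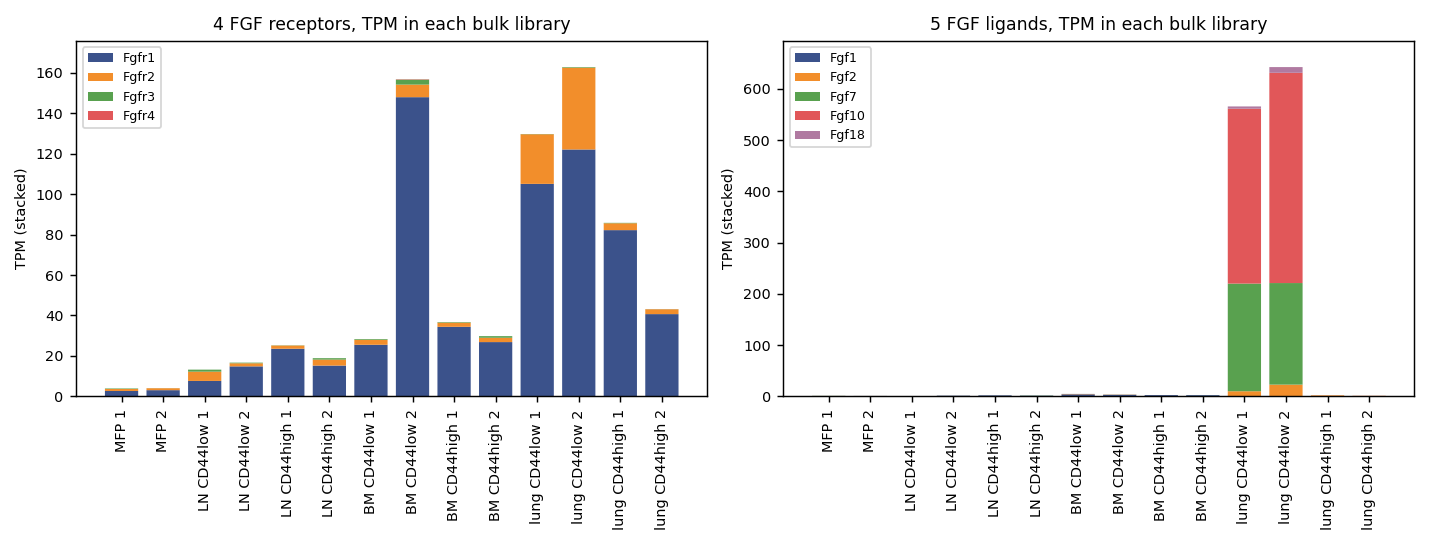
Stacked bars give the TPM of the 4 receptors (left) and of the 5 ligands (right) in each of the 14 bulk libraries, numbered by replicate. Ligand bars rise above 500 TPM only in both lung CD44low libraries, whereas receptor bars are led by Fgfr1 in every library and are shortest in MFP.

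Fgf10 (chr13:118669791-118792115, plus strand), the ligand that drives branching of lung and mammary epithelium, was at 341.14 and 410.16 TPM in lung CD44low. It was at 0.06 and 0.13 TPM in lung CD44high and listed at 0 in all 10 MFP, LN and BM libraries. The 2 lung CD44low libraries lay far above all the others, and no other group reached 1 TPM.

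Fgf7 (chr2:126034658-126091185, plus strand), the keratinocyte growth factor, was high in the same 2 libraries: 210.00 and 198.11 TPM in lung CD44low and listed at 0 in both lung CD44high libraries. It was at 0.17 and 0.25 TPM in MFP, 0.15 and 0.05 in LN CD44low, 0.09 and 0.39 in LN CD44high, 0.07 and 0.10 in BM CD44low, and 0.06 and 0.16 in BM CD44high. The ranges of the LN, BM and MFP groups all lay under 1 TPM, where the order of groups carries no weight.

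Fgf2 (chr3:37348346-37410108, plus strand), the basic FGF that is stored in the matrix, was also highest in lung CD44low, at lower levels. It was at 9.75 and 22.85 TPM in lung CD44low, 1.91 and 1.01 in lung CD44high, 0.59 and 0.40 in BM CD44low, and at most 0.09 in the other 8 libraries. Its 2 lung CD44low libraries differed from each other by a larger ratio than those of Fgf7 or Fgf10 did, yet both lay above the lung CD44high libraries. Fgf2 shares 640 of its 6782 exonic bases with Nudt6, a gene on the opposite strand that was at 12.55 and 11.09 TPM in lung CD44low, and reads of the 2 genes cannot be told apart there without strand.

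Fgf18 (chr11:33117430-33147400, minus strand), a ligand known from bone and lung development, was at 4.44 and 11.16 TPM in lung CD44low, at most 0.11 TPM in MFP and BM CD44low, and listed at 0 in LN, BM CD44high and lung CD44high. Fgf1 (chr18:38838673-38929472, minus strand), the acidic FGF that binds all FGF receptors, was instead low in the lung lines. It was highest in BM CD44low (4.05 and 3.16 TPM) and BM CD44high (2.52 and 2.39), followed by LN CD44high (1.98 and 1.39), LN CD44low (0.25 and 1.37) and MFP (0.83 and 0.46), and was lowest in lung CD44low (0.27 and 0.11) and lung CD44high (0.05 and 0). The ranges of LN CD44low and MFP overlapped, while those of the other neighbours in this order did not. Fgf1 was the ligand with the highest level in each BM and LN library except the first of LN CD44low, where Fgf15 was at 0.34 TPM, and the ligand sum stayed at or under 5.17 TPM in all 8.

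**Figure D2:**
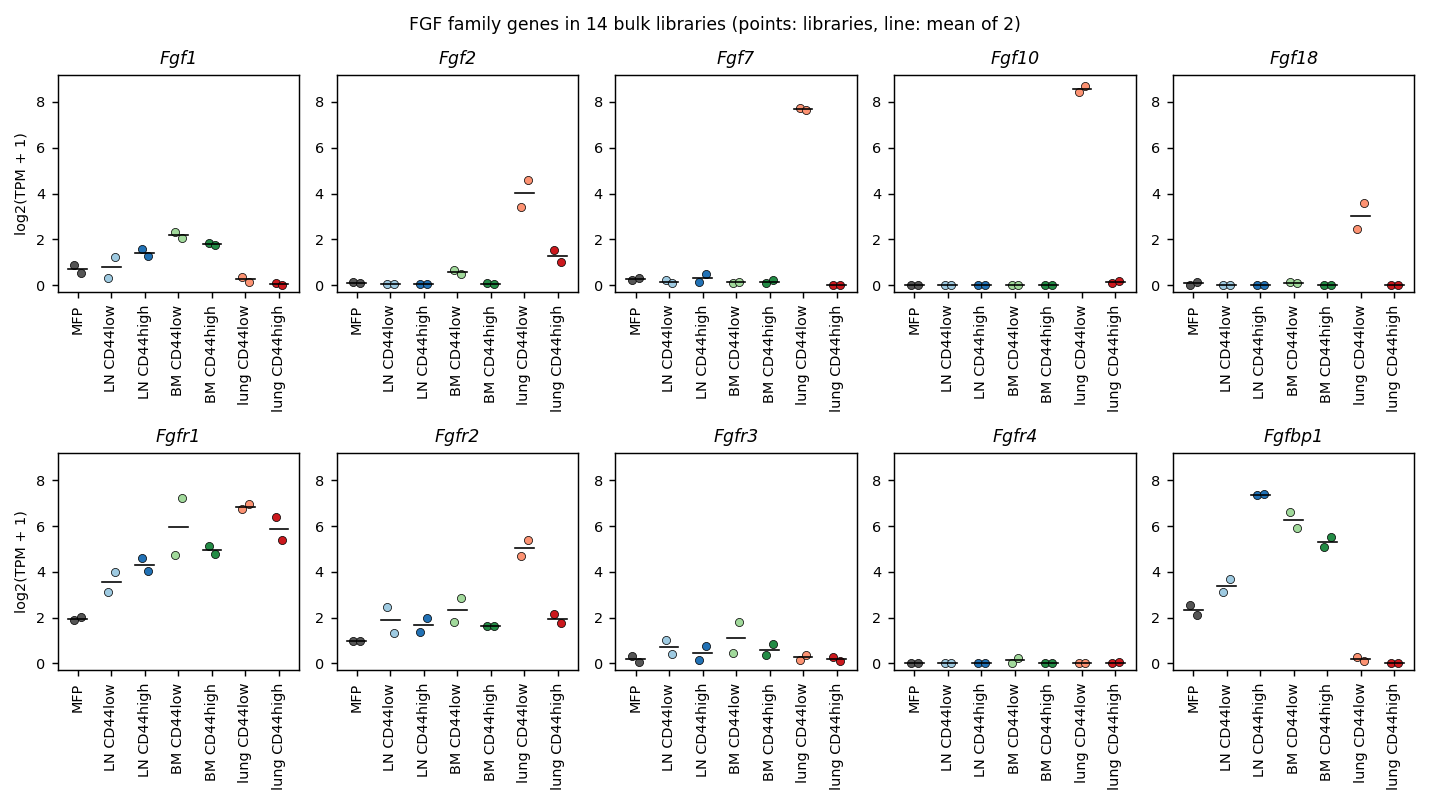
Each panel plots 1 gene as log2(TPM + 1) in the 14 bulk libraries, with a point for each library and a line at the mean of the 2 libraries of a group. Fgf2, Fgf7, Fgf10, Fgf18 and Fgfr2 stand highest in lung CD44low, Fgfr1 is lowest in MFP, and Fgfbp1 stands highest in LN CD44high and lowest in the lung lines.

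Receptors were led by Fgfr1 (chr8:25513654-25575718, plus strand), which gave 57.8% to 95.8% of the summed receptor TPM in each library. The level of Fgfr1 was 2.67 and 3.07 TPM in MFP, 7.64 and 14.84 in LN CD44low, 23.55 and 15.22 in LN CD44high, 25.51 and 147.92 in BM CD44low, 34.39 and 26.84 in BM CD44high, 105.06 and 122.06 in lung CD44low, and 82.19 and 40.67 in lung CD44high. Every metastatic line was above both MFP libraries. The upper end of BM CD44low rested on its second library, the one that stood apart, and with the other library alone this group (25.51 TPM) fell below BM CD44high. On the log2(TPM + 1) scale the mean of Fgfr1 was above that of MFP by 1.60 ± 0.68 (SE, n = 2 libraries a group) in LN CD44low and by 4.89 ± 0.68 in lung CD44low, and the other 4 groups lay between these values.

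Fgfr2 (chr7:130162451-133123350, minus strand) encodes the receptor that FGF7 and FGF10 bind in its epithelial splice form. Its level was 24.54 and 40.44 TPM in lung CD44low, where it made up 18.9% and 24.8% of receptor TPM. In the other 12 libraries it was between 0.96 and 6.22 TPM, the highest being the second BM CD44low library, and the groups there overlapped widely apart from MFP (0.98 and 0.96 TPM), which lay below all of them. Gene-level TPM does not separate the splice forms of Fgfr2. The gene also shares 314 of 10328 exonic bases with Ctbp2, which was at 3.61 to 43.76 TPM.

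Fgfr3 (chr5:33721674-33737068, plus strand) and Fgfr4 (chr13:55152640-55168759, plus strand), which encode the remaining signalling receptors, were near the bottom of the scale. Fgfr3 ranged from 0.03 to 2.46 TPM, with its highest value again in the second BM CD44low library, and the ranges of neighbouring groups overlapped. Fgfr4 was listed at 0 in 12 of 14 libraries and reached 0.19 TPM at most, so it was the only member that failed the filter for testing (at least 1 TPM in at least 2 libraries).

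Fgfbp1 (chr5:43978858-43981779, minus strand) was highest in LN CD44high and near 0 in the lung lines. The level of Fgfbp1 was 160.73 and 167.20 TPM in LN CD44high, 96.32 and 58.67 in BM CD44low, 32.76 and 45.50 in BM CD44high, 7.56 and 11.99 in LN CD44low, 4.86 and 3.35 in MFP, 0.22 and 0.06 in lung CD44low, and listed at 0 in both lung CD44high libraries. No neighbouring groups in this order overlapped. It was the only member that differed widely by CD44 class in LN, with a mean log2(TPM + 1) higher by 3.97 ± 0.32 (SE, n = 2 libraries a group) in CD44high. In BM the CD44high mean was instead lower, by a log2(TPM + 1) difference of -0.94 ± 0.32, and in the lung lines the gene was near 0 in both classes.

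Counts of members past the threshold used for all genes (an absolute log2 fold change over 2 and an adjusted p under 0.05, limma) are given with the share of the 15348 tested genes that passed it. The members went through the same fit as all genes, but they were chosen for their levels, so these counts are a description and nothing is read from them. Against MFP, 0 of the 9 tested members passed in LN CD44low, where 4.79% of all genes did (2.07% higher, 2.72% lower). Fgfr1 and Fgfbp1 were the 2 that passed in LN CD44high, both higher (6.12% of all genes: 2.44% higher, 3.68% lower). Those 2 were also the members that passed, again higher, in BM CD44low (7.16% of all genes: 3.99% higher, 3.17% lower) and in BM CD44high (7.67%: 3.64% higher, 4.03% lower). In lung CD44low, 6 were higher (Fgf2, Fgf7, Fgf10, Fgf18, Fgfr1 and Fgfr2) and 1 lower (Fgfbp1), beside 18.8% of all genes (11.2% higher, 7.62% lower). In lung CD44high, Fgfr1 was higher and Fgfbp1 lower (13.5% of all genes: 5.42% higher, 8.03% lower). The comparisons with MFP share the MFP libraries.

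Between CD44 classes, Fgfbp1 was the 1 member that passed in LN, higher in CD44high (0.208% of all genes: 0.117% higher, 0.0912% lower). In BM 0 passed (0.104% of all genes: 0.0521% higher, 0.0521% lower). In lung 5 passed, and Fgf2, Fgf7, Fgf10, Fgf18 and Fgfr2 were all lower in CD44high (11.3% of all genes: 2.49% higher, 8.8% lower). For the mean of the 2 lung groups against the mean of the LN and BM groups, Fgf2, Fgf7 and Fgf10 were higher and Fgfbp1 lower (12.7% of all genes: 7.13% higher, 5.54% lower). Fgf7 was nevertheless listed at 0 in lung CD44high, below every LN and BM library, and Fgf10 was at 0.06 and 0.13 TPM there. The CD44 difference in lung was below that in LN for 6 members, those 5 and Fgfbp1 (10.4% of all genes: 3.39% higher, 7% lower), and below that in BM for the 5 (8.66%: 2.77% higher, 5.89% lower), and these comparisons share the lung libraries.

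Single-cell libraries gave a view of the same genes by cell. After the filter of the study (over 250 genes and under 10% mitochondrial counts), 1236 of 3623 barcodes remained in lung CD44high, 348 of 2808 in lung CD44low and 2562 of 3297 in LN CD44high, with median counts of 557, 4011 and 585 per cell. The study reports fewer cells for each of these lines, and the reason was not looked into. Counts were summed over the kept cells and given per 10000, with exact Poisson 95% intervals that cover counting error only. The study describes replicates of these samples, but each line had 1 single-cell library here, so no test was made. No doublets were called or removed. Barcodes are numbered within each library, so barcodes shared between libraries could not be counted.

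Fgf10 gave 347 counts in lung CD44low, or 1.56 per 10000 (interval 1.40 to 1.74), and 1 count in each of the other libraries. For Fgf7 the counts were 183 in lung CD44low (0.824 per 10000, 0.709 to 0.953), 14 in lung CD44high (0.0633, 0.0346 to 0.106) and 1 in LN CD44high. Fgf2 gave 179 counts in lung CD44low (0.806 per 10000, 0.692 to 0.933), 31 in lung CD44high (0.140, 0.0953 to 0.199) and 7 in LN CD44high (0.0132, 0.00532 to 0.0273). The 3 ligands were thus higher in lung CD44low than in the other libraries by more than the counting intervals. Fgf18 had 0 of 2220759 counts in lung CD44low, and a count of 0, taken as a limit of 3 counts, allows up to 0.0135 per 10000, while Fgf1 had 4 counts in LN CD44high and 0 in both lung libraries.

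Fgf7 or Fgf10 was counted in 137 of 348 lung CD44low cells, in 73 cells for Fgf7 and 117 for Fgf10, with 53 cells holding both. The same measure gave 12 of 1236 lung CD44high cells and 2 of 2562 LN CD44high cells. Depth moved with detection: lung CD44low cells with either ligand had a median of 10857 counts and those without had 1044. Among the 206 lung CD44low cells with at least 2000 counts, 126 had a count of either ligand, 165 had one of Fgfr1 and 109 had both. With the same minimum, 7 of 194 lung CD44high cells and 1 of 254 LN CD44high cells had either ligand.

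Fgfr1 was the most counted member in each single-cell library. It gave 1282 counts in lung CD44high (5.80 per 10000, 5.49 to 6.13), 693 in lung CD44low (3.12, 2.89 to 3.36) and 777 in LN CD44high (1.47, 1.37 to 1.58). Lung CD44high lay above lung CD44low here, whereas in bulk both lung CD44low libraries lay above both lung CD44high libraries. Fgfr2 gave 91 counts in lung CD44low (0.410 per 10000, 0.330 to 0.503), 29 in lung CD44high (0.131) and 75 in LN CD44high (0.142), the same order as in bulk for the lung lines. Fgfr3 had 13 counts in LN CD44high, 2 in lung CD44low and 1 in lung CD44high, and Fgfr4 had 0 in all 3. Fgfbp1 gave 112 counts in LN CD44high (0.212 per 10000, 0.174 to 0.255), 2 in lung CD44high and 0 in lung CD44low.

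**Figure D3:**
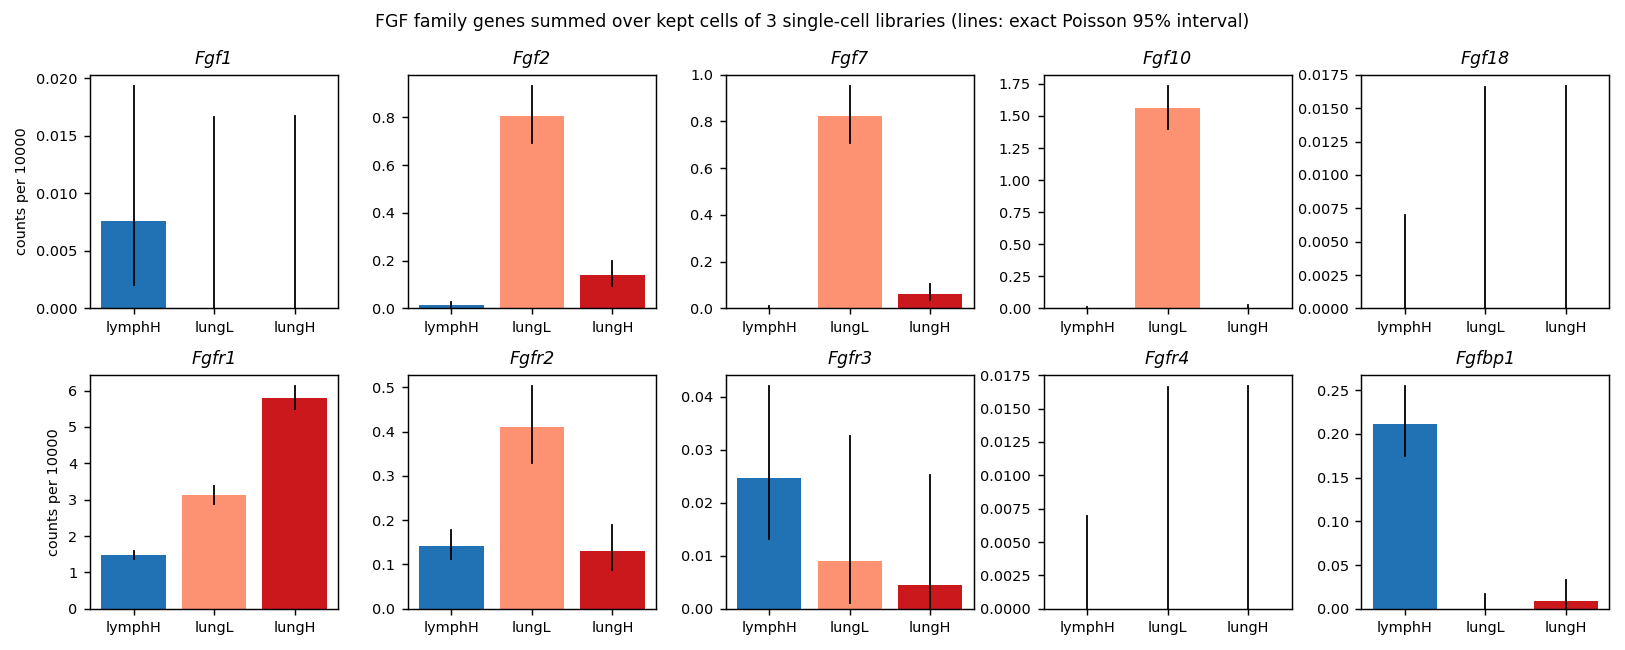
Bars give the counts per 10000 of each gene summed over kept cells of the LN CD44high (lymphH), lung CD44low (lungL) and lung CD44high (lungH) libraries, on a scale of its own in each panel, and lines give the exact Poisson 95% interval. Fgf2, Fgf7, Fgf10 and Fgfr2 stand highest in lungL, Fgfr1 in lungH at 5.80, and Fgfbp1 in lymphH.

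Other FGF pathway genes were tested in the bulk libraries, and 58 of the 83 listed passed the filter. Across the 7 lists, 15 of the 58 passed the threshold in lung CD44low against MFP (10 higher, 5 lower; 25.9%, beside 18.8% of all genes) and 13 in lung CD44high (6 higher, 7 lower; 22.4%, beside 13.5%). In the LN and BM lines the counts against MFP were 3 in LN CD44low (1 higher, 2 lower; 5.17%, beside 4.79% of all genes), 5 in LN CD44high (1 higher, 4 lower; 8.62%, beside 6.12%), 8 in BM CD44low (4 higher, 4 lower; 13.8%, beside 7.16%) and 7 in BM CD44high (2 higher, 5 lower; 12.1%, beside 7.67%). The LN shares lay near those of all genes. The lung CD44 classes differed in 9 genes (1 higher and 8 lower in CD44high; 15.5%, beside 11.3% of all genes), and the lung lines differed from the LN and BM lines in 9 (6 higher, 3 lower; 15.5%, beside 12.7%). Between CD44 classes, limma called 0 in LN, where 6 had an unadjusted p under 0.05, and 0 in BM, where 4 did, or 9 called in BM without the first BM CD44low library. Under a median-ratio scaling of TPM the split was 3 higher and 2 lower in LN CD44high, 4 and 1 in BM CD44low, and 4 and 2 in BM CD44high.

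The other 17 ligand genes stayed low. Fgf13, an intracellular FGF-like factor, was the only one tested and reached 1.63 and 2.76 TPM in lung CD44high. It did not pass the threshold in any comparison. Among the 8 coreceptor and binding genes, 4 were tested. Fgfrl1, a receptor with no kinase domain, was over 1 TPM in all 14 libraries, at 9.38 to 35.45 TPM. Flrt2, a membrane protein of a family that binds FGF receptors, was at 1.62 and 0.39 TPM in MFP, 4.36 and 6.0 in lung CD44low, 11.08 and 8.27 in lung CD44high and at most 0.03 in any line from LN or BM. It was higher in lung CD44high than in MFP (log2 fold change 2.47 ± 0.29, adjusted p = 0.000137, limma). The klotho coreceptors Kl and Klb, which the endocrine FGFs need, stayed at or under 0.03 TPM.

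Of 10 tested genes of heparan sulfate enzymes, 3 (Sulf1, Hs6st2 and Ndst1) were higher and 0 lower in the mean of the lung groups than in that of the LN and BM groups (30%, beside 12.7% of all genes), and 7 did not pass. The list had a median log2 fold change of 1.21 beside 0.20 over all genes. Sulf1, an extracellular enzyme that removes 6-O-sulfate from heparan sulfate, was at 168.6 and 203.66 TPM in lung CD44low, 0 and 0.18 in lung CD44high, and at most 0.11 in the other libraries, with both MFP libraries listed at 0. Its mean log2(TPM + 1) fell by 7.42 ± 0.19 from lung CD44low to lung CD44high. Sulf1 passed the filter for testing only through the lung CD44low libraries, where it was high. No p is therefore printed for it, and its calls, which enter the counts, are a description. Hs6st2, which adds 6-O-sulfate, was at 8.49 and 11.79 TPM in lung CD44low, 1.51 and 0.68 in lung CD44high, 0.68 and 0.69 in MFP, and at most 0.03 in lines from other organs. From lung CD44low to lung CD44high it fell by 2.42 ± 0.22 on the log2 scale (adjusted p = 2.13e-05, limma). Ndst1, an N-deacetylase and sulfotransferase that begins sulfation, ran opposite, at 169.39 and 176.04 TPM in lung CD44high, 28.87 and 39.86 in lung CD44low, 26.17 and 13.43 in MFP and 7.94 to 36.55 in LN and BM. It was higher in lung CD44high than in lung CD44low by 2.31 ± 0.57 (adjusted p = 0.0126, limma), a call lost without the first lung CD44low library (2.09) or either lung CD44high library (2.34 and 2.29).

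Of 18 signal transducers tested, 3 rose and 1 fell against MFP in lung CD44low (22.2%, beside 18.8% of all genes), and the median of the list was 0.85 beside 0.00 over all genes. Gab1, a docking protein of receptor kinases, rose from 2.26 and 2.33 TPM in MFP to 15.12 and 24.86 TPM in lung CD44low (log2 fold change 2.63 ± 0.50, adjusted p = 0.00190, limma) and 18.92 and 13.44 TPM in lung CD44high. Nras, a RAS GTPase, went from 126.08 and 157.96 TPM to 18.52 and 26.76 in lung CD44low and to 19.55 and 24.62 in lung CD44high (log2 fold change -2.61 ± 0.36, adjusted p = 0.000294, and -2.63 ± 0.36, adjusted p = 0.000388, limma). Plcg1 (2.80) and the kinase gene Braf (2.07) rose too in lung CD44low. Both calls were lost without the second lung CD44low library, at 2.55 and 1.82, and that of Plcg1 also without the second MFP library, at 2.48. Gab1 rose in BM CD44low as well (2.07), a call lost without the second library of that group (1.20) or either MFP library (2.06 and 2.09).

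Of 9 tested feedback inhibitors, 1 rose and 1 fell against MFP in lung CD44high (22.2%, beside 13.5% of all genes) and 1 rose in lung CD44low (11.1%, beside 18.8%). Dusp6, a phosphatase of ERK that FGF signalling induces, was at 76.31 and 51.47 TPM in MFP, 128.13 to 312.63 over LN and BM, 19.54 and 43.19 in lung CD44low and 40.56 and 22.76 in lung CD44high. It was lower in the lung lines than in the LN and BM lines (log2 fold change -2.76 ± 0.31, adjusted p = 3.96e-05, limma), and no lung library reached any LN or BM library. Dusp4, a related phosphatase, fell against MFP in LN CD44high, in both BM groups and in lung CD44high, with log2 fold changes of -2.48, -2.10, -2.28 and -2.75. Median-ratio scaling ended the first 3 of these calls (-1.97, -1.82 and -1.74). The BM calls were lost when 1 library was left out, the first MFP library (-2.01) or the first BM CD44low library (-1.46) in BM CD44low and the second BM CD44high library (-1.98) in BM CD44high. Spry2, a Sprouty inhibitor, was at 51.86 and 69.14 TPM in lung CD44low and 10.32 and 13.75 in lung CD44high, but its log2 difference of -2.24 did not pass (adjusted p = 0.0661, limma). It was also 117.6 TPM in the second BM CD44low library and 9.87 in the first. Spred2, a Sprouty-related inhibitor, rose in lung CD44low (3.22, lost without its second library at 2.9995), and its relative Spred3 rose in lung CD44high (2.35). Dusp5, a nuclear ERK phosphatase, was lower in lung CD44high than in lung CD44low (-2.32), a call lost without the second lung CD44low library (-1.71) or either lung CD44high library (-2.55 and -2.08).

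Target genes of the pathway changed in both directions. Etv5, a PEA3-group transcription factor that FGF signalling induces, rose against MFP (5.04 and 1.41 TPM) in 5 of the 6 groups. It was at 84.13 and 58.06 TPM in LN CD44high (log2 fold change 4.22 ± 0.44, adjusted p = 0.000119, limma), 63.24 and 111.45 in BM CD44low (4.48), 95.09 and 63.97 in BM CD44high (4.37), 31.37 and 35.92 in lung CD44low (3.18) and 13.55 and 18.43 in LN CD44low (2.14). In lung CD44high, at 9.21 and 9.11 TPM, it did not pass the threshold (1.41). The LN CD44low call was lost without the second MFP library (1.48) or the second LN CD44low library (1.93). Etv1, of the same group, rose in both BM and both lung groups, from 1.42 and 0.14 TPM in MFP to 30.39 and 33.59 TPM in lung CD44low. Its call in BM CD44low (3.39) was lost when only the groups compared were fitted. Etv4, the last of the group, was not called against MFP, with log2 fold changes of -1.84 to 1.57. Myc fell in LN CD44high, BM CD44low and BM CD44high, and Fosl1, an AP-1 subunit, fell in the same 3 groups and in lung CD44high. The call of Fosl1 in BM CD44low was lost without the first MFP library (-2.02) or the first BM CD44low library (-1.63). Fos, another AP-1 subunit, fell in LN CD44low (-2.60), LN CD44high (-2.37) and BM CD44high (-2.04), and each call was lost without the second MFP library (-2.29, -2.05 and -1.72). The LN CD44high call was also lost without the second library of that group (-1.95) and the BM CD44high call without either of its libraries (-2.13 and -1.95). Ier3, a stress response gene, fell in BM CD44low (-2.25) and lung CD44high (-2.34). Median-ratio scaling ended the BM CD44low calls of Ier3 (-1.96) and Fosl1 (-1.92) and the calls of Fos in LN CD44high (-1.84) and BM CD44high (-1.48).

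Between the lung CD44 classes, 3 of the 12 target genes tested passed, all lower in CD44high (25%, beside 11.3% of all genes). Phlda1 was at 141.59 and 228.67 TPM in lung CD44low and 3.38 and 3.59 in lung CD44high, a log2 fold change of -5.33 ± 0.37 (adjusted p = 3.03e-06, limma). The early response gene Egr1 was at 277.08 and 426.79 TPM and 33.86 and 12.11 TPM, a log2 fold change of -4.01 ± 0.54 (adjusted p = 0.000354, limma). Fosl1 was at 20.81 and 29.87 TPM and 2.34 and 2.45 TPM, a log2 fold change of -2.93 ± 0.51 (adjusted p = 0.00182, limma). In each case the 2 lung CD44low libraries were both above the 2 lung CD44high libraries. Ccnd1, a cyclin, was low in both lung groups, at 22.94 to 86.55 TPM against 174.94 to 624.17 TPM over the lines from LN and BM (log2 fold change -2.74 ± 0.30, adjusted p = 3.87e-05, limma). Against MFP it fell in lung CD44high (-3.25) and in lung CD44low (-2.33), the latter call being lost without the first MFP library (-1.80) or the first lung CD44low library (-1.97). Fos (2.93) and the ephrin receptor gene Epha4 (2.60) were higher in the lung lines than in the LN and BM lines. Epha2 fell against MFP in lung CD44low (-2.56), a call lost without the first MFP library (-2.30) or the first lung CD44low library (-2.22), and Epha4 rose in lung CD44high (2.21, lost without its second library at 1.69). Phlda1 rose against MFP in lung CD44low (3.97) and in BM CD44low (2.07), where the call was lost without the second library of MFP (1.84) or of BM CD44low (1.58).

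**Figure D4:**
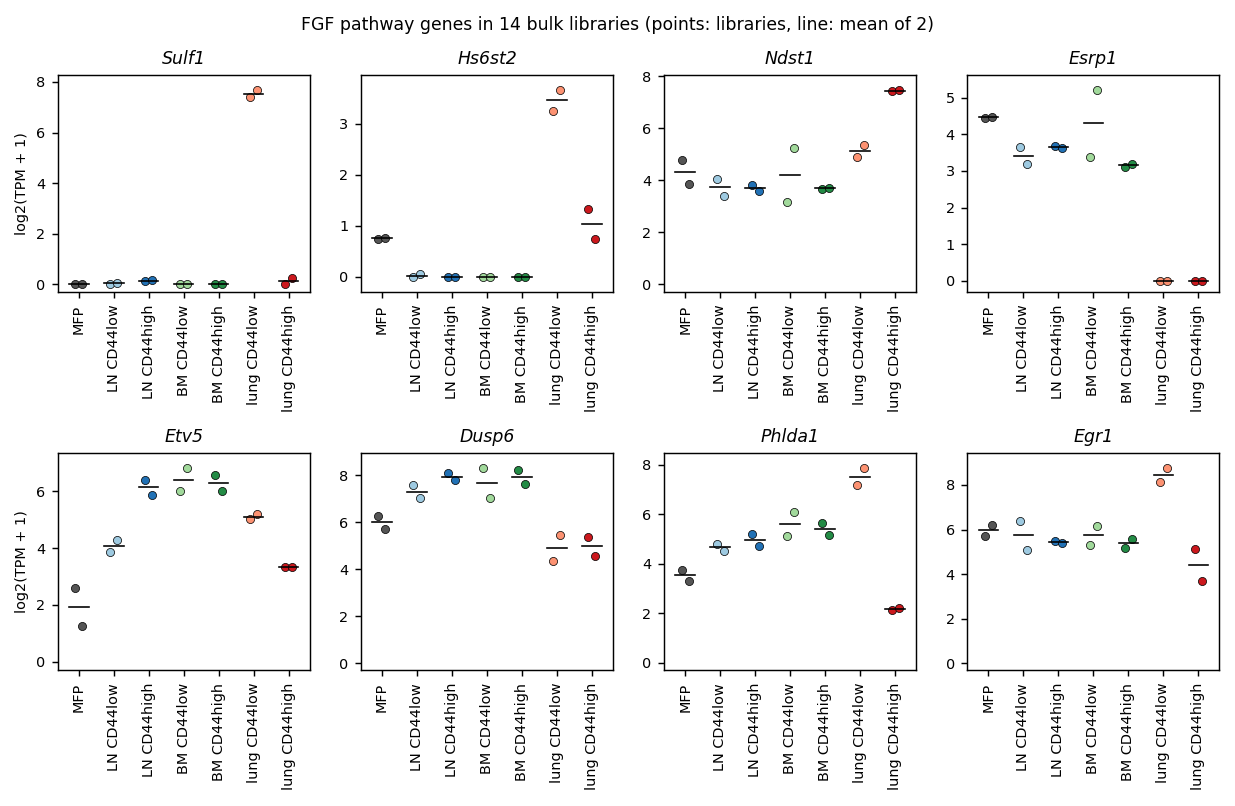
Each panel plots 1 pathway gene outside the 10 members as log2(TPM + 1), with a point for each of the 14 bulk libraries and a line at the mean of the 2 libraries of a group. Sulf1, Hs6st2, Phlda1 and Egr1 stand highest in lung CD44low, Ndst1 in lung CD44high, and Etv5 and Dusp6 in LN CD44high and BM, while Esrp1 is at 0 in all 4 lung libraries.

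Splicing regulators bear on the receptors because ESRP1 and ESRP2 favour the epithelial form of FGFR2. Esrp1 was at 20.88 and 21.32 TPM in MFP and 7.61 to 36.02 TPM in LN and BM, and listed at 0 in all 4 lung libraries. Its mean log2(TPM + 1) was lower in the lung lines than in the LN and BM lines by a difference of -3.63 ± 0.29 (adjusted p = 4.24e-06, limma). Esrp2 was at 15.38 and 19.51 TPM in MFP, 3.0 to 13.51 in LN and BM, and 0.61 to 1.92 in the lung libraries, and it fell against MFP by 2.96 ± 0.49 in lung CD44low (adjusted p = 0.000875, limma) and by 3.08 ± 0.49 in lung CD44high (adjusted p = 0.000909, limma). In LN CD44low its call (-2.06) was lost without either MFP library (-2.22 and -1.89) or the second LN CD44low library (-1.92). Ptbp1, a general splicing repressor, passed the threshold in no comparison, and Rbfox2 was called against MFP in BM CD44high alone. That call (-2.11) was lost without the second MFP library (-1.87) or either BM CD44high library (-2.13 and -2.09), and median-ratio scaling ended it (-1.57) and that of Esrp2 in LN CD44low (-1.76). Epcam and the epithelial markers other than Krt8 and Krt18 were also under 1 TPM in the lung libraries. Krt18 was at 1.42 and 2.11 TPM in lung CD44low and 10.11 and 58.86 TPM in lung CD44high. Krt8 was listed at 0 in lung CD44low and was at 5.26 and 27.78 TPM in lung CD44high. The part of these markers in the Esrp1 difference was not tested.

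**Figure D5:**
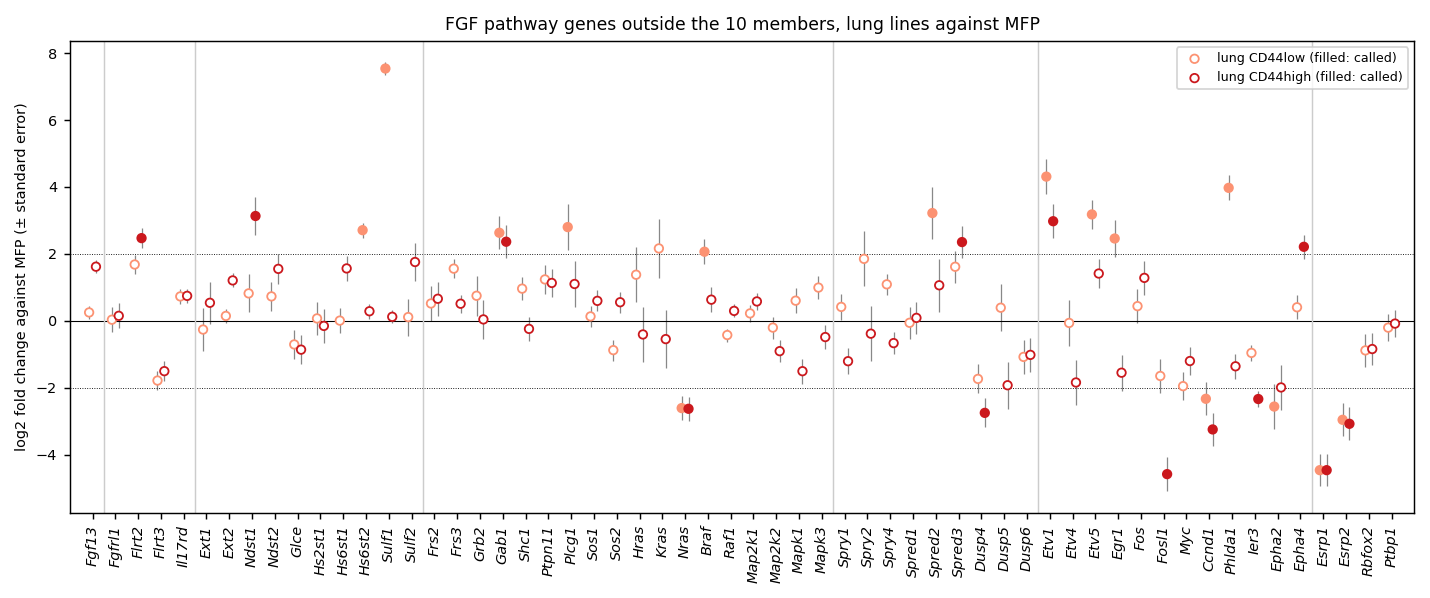
Points give the log2 fold change against MFP, with its standard error, of the 58 tested pathway genes in lung CD44low and lung CD44high, in the order of the lists and with vertical lines between lists. Filled points passed the threshold, dotted lines mark a log2 fold change of 2 in either direction, and Sulf1 in lung CD44low (7.54) is the highest point.

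Genes whose pattern was most like that of a member were found by Pearson's r of log2(TPM + 1) over the 14 libraries, among tested genes. The values describe shared libraries and carry no p. For Fgf7 the closest were Gm36569, Rarres1 and Fbln1 (r of 0.9992, 0.999 and 0.999), among 219 genes with r over 0.99. For Fgf10 they were Pdpn, Gata6 and Mgl2 (r of at least 0.9999), among 236 such genes, and for Fgf18 Vip, Rian and Igdcc4, among 62. Fgf7, Fgf10 and Fgf18 were over 1 TPM in the 2 lung CD44low libraries alone, so these values rest on those libraries. For Fgf2 the closest were Arhgap20 (0.9907), Hic1 (0.9877) and Tmtc1 (0.9858), and for Fgfr2 Gm36033 (0.9738), Smad6 (0.9712) and H60c (0.9637). Fgfr1 was most like Lix1l (0.9807), Nlrx1 (0.9486) and E130307A14Rik (0.9439), and Fgfbp1 most like Ncmap (0.9683), Prkab1 (0.9595) and Cracr2b (0.9591). By rank (Spearman's rho) another gene came first for each of the 7.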

How the data were processed

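The authors deposited 1 table of TPM for 14 bulk libraries (modified SMART-seq2, aligned to mm10 with STAR, quantified with RSEM on GENCODE v21) and 3 tables of counts per gene and cell (ddSeq 3′ libraries, quantified with kallisto). TPM keeps no depth, so no count test was possible. Whether the deposited single-cell counts collapse molecular identifiers is not given in the sources used here. Gene symbols were taken from the row names of the single-cell tables (35849 of 55450 identifiers) and GENCODE for the rest. Members and gene lists were chosen with earlier results of these data known.

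A gene was tested if 2 or more libraries reached 1 TPM (15348 genes). Values of log2(TPM + 1) were fitted with limma 3.58.1 in R 4.3.3, with a mean for each of the 7 groups (7 residual degrees of freedom), a trended prior and Benjamini-Hochberg adjustment over all genes tested. Fold changes on this scale understate changes of low genes, and the residual spread of a pair stands for that of 2 clonal isolates. A gene was called at an absolute log2 fold change over 2 and an adjusted p under 0.05, in 12 comparisons. Named genes were every member, up to 5 called genes per list and comparison, all called genes of lists with 5 or fewer, and the 3 genes most like each tested member with at least 5 TPM in a library; uncalled pathway genes that are named were chosen after their values were seen. Single-cell counts were summed over kept cells with exact Poisson 95% intervals (scipy 1.17.1). The fits were tested on simulated data. Some single-gene results that enter the counts are not reported here.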

Additional observations from a re-analysis of the deposited data

Results flagged for a closer look

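The CD44 difference of 14 pathway genes outside the 10 members differed between the lung lines and another organ, by a test of the difference itself (an interaction contrast in limma with the call threshold used throughout). They were 12 of the 58 tested against LN (20.7%, beside 10.4% of all genes) and 7 against BM (12.1%, beside 8.66%). Values are the log2 fold change of CD44high over CD44low in lung minus that in the other organ. Both comparisons use the same 4 lung libraries, which went against their EpCAMhigh label, and the part of this in the differences was not tested.

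Against LN, heparan sulfate enzymes gave -7.52 for Sulf1 and -2.40 for Hs6st2. Of the target genes, Phlda1 was at -5.62, Etv5 at -3.84 and Egr1 at -3.71, and the guanine exchange factor gene Sos2 was at 2.27. These 6 calls held in every alternative in which the gene was tested. Sulf1 could not be tested without either lung CD44low library, since it then failed the filter. The calls of Spry1 (-2.36), Spry4 (-2.04) and Epha4 (2.09) were lost in 5, 3 and 5 of the 14 fits that leave out 1 library, and each was lost without the first LN CD44high library. Etv1 (-2.36), Fosl1 (-2.34) and Ccnd1 (-2.34) lost their calls in 9, 11 and 9 of the 14, so these 3 lie at the threshold.

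Against BM, Sulf1 was at -7.41, Phlda1 at -5.12, Hs6st2 at -2.42 and Ier3 at -2.35, and these 4 calls held in every alternative tested. For Sulf1 the fits without either lung CD44low library could again not be run. Egr1, at -3.67, lost its call without the second lung CD44low library (-3.36). Epha4 (2.13) lost its call without the first BM CD44high library (2.02), the first lung CD44low library (1.78) or the second lung CD44high library (1.61). Ndst1 (2.83) lost its call in 9 of the 14 fits and was at 1.79 without the second BM CD44low library.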

How the results depend on the processing

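The counts of pathway genes called kept within 1.5 times of the reported counts in all alternatives other than those that follow. With a pseudocount of 0.1 they were 7 in LN CD44low (reported 3), 10 in LN CD44high (5) and 13 in BM CD44high (7) against MFP, 14 between the lung CD44 classes (9) and 14 for lung against LN and BM (9). Fitting only the groups compared gave 1 in LN CD44low and 3 in BM CD44low (8), and median-ratio scaling gave 5 in BM CD44low. Over all genes, the pseudocount of 0.1 called 1430 (735), 1876 (940), 2055 (1099), 2195 (1177) and 3286 (2065) genes against MFP in LN CD44low, LN CD44high, BM CD44low, BM CD44high and lung CD44high, 2666 (1732) between the lung CD44 classes and 3650 (1946) for lung against LN and BM. Fitting only the groups compared called 0 (32) between CD44 classes in LN and 5 (16) in BM. Without the first BM CD44low library 972 genes differed between CD44 classes in BM, without the second 7 did, and without either LN CD44low library 27 did. The 32 genes between CD44 classes in LN became 72 and 100 without the first and second LN CD44low library and 12 without the first LN CD44high library. BM CD44low against MFP had 1781 genes without its first library, and the lung CD44 classes 1147 without the second lung CD44low library. Without the first or second lung CD44low library, 928 and 998 genes (1594) were called for the CD44 difference in lung against that in LN, and 797 and 801 (1329) against that in BM. Leaving out 1 library gave 0 to 5 pathway genes called in LN CD44low, 4 to 7 in LN CD44high, 5 to 14 in BM CD44low, 5 to 10 in BM CD44high, 12 to 16 in lung CD44low and 13 to 15 in lung CD44high against MFP. It gave 0 to 0 between CD44 classes in LN, 0 to 9 in BM and 6 to 11 in lung, 8 to 9 for lung against LN and BM, and 6 to 17 and 4 to 11 for the CD44 difference in lung against that in LN and in BM. Without the second MFP library LN CD44low had 0, and without the first or second LN CD44low library 5 and 1. BM CD44low had 5 without the first MFP library and 14 without its own first library. The contrast of lung with LN had 6 without the first LN CD44high library or either lung CD44low library, and that with BM had 4 without either lung CD44low library and 11 without the second BM CD44low library. The cause was not tested. Median-ratio scaling ended 9 of the 88 calls of single genes, namely Dusp4 in LN CD44high (-1.97), BM CD44low (-1.82) and BM CD44high (-1.74), Fos in LN CD44high (-1.84) and BM CD44high (-1.48), Fosl1 (-1.92) and Ier3 (-1.96) in BM CD44low, Rbfox2 in BM CD44high (-1.57) and Esrp2 in LN CD44low (-1.76). It moved the median log2 fold change of all genes from -0.30 to 0.03 in LN CD44high and from -0.34 to 0.05 in BM CD44high.

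The replicate numbers in the labels showed no general pairing of the samples: over 21 pairs of groups the correlation of deviations ran from -0.194 to 0.168, with 3 pairs over 0.1. The CD44 classes of the same organ were not set apart in this check, so it cannot decide whether those were paired. With the replicate number as a block, 9 and 6 pathway genes were called for the CD44 difference in lung against that in LN (12 without it) and in BM (7), and 5 of 88 calls of single genes were lost, among them Etv1, Fosl1 and Ccnd1 for lung against LN and Ndst1 for lung against BM. No called value changed sign, but 30 recomputed differences of members that were not called did, 6 of them beyond the spread between replicates. The Fgfr1 difference of CD44high from CD44low in BM, below 0 with all libraries, was 0.24 without the second BM CD44low library. Fitting only the groups compared ended the calls of Etv5 and Esrp2 in LN CD44low, Gab1, Dusp4, Etv1, Fosl1 and Phlda1 in BM CD44low, Fosl1 for lung against LN, and Ndst1 and Epha4 for lung against BM. For the members, a pseudocount of 0.1 moved 60 of 108 differences beyond the spread between replicates. In single cells, a minimum of 2000 counts per cell (chosen after seeing the data) gave Fgfr1 6.48 per 10000 in lung CD44high, and a mean of per-cell values 4.25. That mean moved 10 member levels beyond their counting intervals. It gave 0.135 for Fgf7 (reported 0.0633) and 0.250 for Fgf2 (0.140) in lung CD44high. For Fgfr2 in lung CD44low it gave 0.649 (0.410). Having 2 libraries a group and TPM without depth limit all bulk values.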

Other observations

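The lines with 1 single-cell library each were set beside the bulk libraries of the same groups. Of the 58 tested pathway genes, 55 had at least 10 single-cell counts (a minimum chosen after seeing the data), and 24 of them were highest in the same line in both kinds of library, whereas 31 were highest in another line, with overlapping counting intervals of the 2 lines for 17 of the 31. Among those in another line, Ccnd1 was at 7.81 per 10000 in lung CD44high, 6.54 in LN CD44high and 3.68 in lung CD44low, and Etv5 at 0.599 in lung CD44low, 0.320 in LN CD44high and 0.204 in lung CD44high, while in bulk LN CD44high was the highest of these 3 lines for both. Genes that were highest in the same line follow. Sulf1 gave 139 counts in lung CD44low (0.626 per 10000, interval 0.526 to 0.739) and 0 in the others, and Hs6st2 gave 125 in lung CD44low (0.563), 6 in lung CD44high and 0 in LN CD44high. Phlda1 was at 4.77 per 10000 in lung CD44low, 1.75 in lung CD44high and 1.18 in LN CD44high, and Ndst1 at 0.410, 1.63 and 0.429. In bulk, by contrast, LN CD44high lay above lung CD44high for Phlda1 (35.72 and 25.01 TPM against 3.38 and 3.59). The single-cell intervals of lung CD44low (0.330 to 0.503) and LN CD44high (0.375 to 0.489) overlapped for Ndst1, while its bulk values lay higher in lung CD44low. Flrt2 gave 190 counts in lung CD44high (0.860 per 10000), 96 in lung CD44low (0.432) and 0 in LN CD44high. Esrp1 gave 171 counts in LN CD44high and 0 in both lung libraries, and Epcam gave 936, 3 in lung CD44high and 0 in lung CD44low. Not all epithelial markers followed Epcam. Krt18 was instead higher in lung CD44high (573 counts, 2.59 per 10000) than in LN CD44high (1.17). Krt8 gave 369 counts in lung CD44high (1.67 per 10000), beside 2.81 per 10000 in LN CD44high. Cldn3 gave 44 counts in lung CD44low. With 1 library a line, none of these differences was tested.

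Levels of other genes differed between the kinds of library. Esrp2 was at 0.199 per 10000 in lung CD44high and 0.153 in lung CD44low, beside 0.235 in LN CD44high. The intervals of both lung lines overlapped that of LN CD44high. Dcn, at 4090.71 and 4315.33 TPM in the bulk lung CD44low libraries, gave 22 counts in the single-cell library of that line (0.0991 per 10000), and Lum, at 362.28 and 217.49 TPM in bulk, gave 0 counts. Other fibroblast markers were well counted there. Col1a2 gave 3192 counts (14.4 per 10000), Col1a1 965, Pdgfrb 325, Pdgfra 141 and Col3a1 102, while Thy1 gave 8. Each of these was highest in lung CD44low among the single-cell libraries. Acta2 was high in both kinds of library, with 10116 counts in 300 of 348 lung CD44low cells. Cd44 gave 8.51 per 10000 in lung CD44low and 4.99 in lung CD44high.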
